A study of Mus musculus with 8 samples.

Results

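Collagen genes were examined in mouse pancreas after loss of lamin A/C, the nuclear envelope protein encoded by Lmna. They were taken as every row of the deposited array table whose single annotated gene symbol names a collagen chain, such as Col1a1. This gave 44 collagen genes among 22180 genes tested, read from 47 rows, of which the brightest was used for each gene. They were divided into 11 fibrillar chains, the 6 chains of basement membrane type IV collagen and 27 chains of other types.

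The knockout group (KO) held 4 Lmna knockout (LmnaKO) pancreata and the control group (WT) held 4 LmnaWT pancreata, all of strain C57 BL6, with 3 males and 1 female per genotype. Both groups had received tamoxifen, the drug that switches on an inducible Cre recombinase, as an intraperitoneal injection of 3 mg per 40 g of body weight, and RNA was taken on day 6. The title of the series places the deletion in acinar cells, the enzyme-secreting cells of the exocrine pancreas, while the labels name neither the Cre line, the ages of the mice nor any pooling. Total RNA of the whole organ was measured, so fewer cells of a type and less RNA per cell cannot be told apart. The labels name separate samples and nothing more on their origin, so the p-values speak only of the spread among these arrays, which may be technical.

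The targeted gene did not check the genotype labels. Its row read 2.33, 2.58, 2.73 and 2.61 in KO 1 to KO 4, against 2.54, 3.13, 2.67 and 2.88 in WT 1 to WT 4 (-0.24 ± 0.15, SE, limma adjusted p = 0.264), a dim and overlapping signal, and where its probes lie in the gene is not known here.

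Collagens are secreted proteins in which several chains wind into a rigid helix. Fibrillar types I, III and V form the tensile fibres of connective tissue, type IV forms the sheet-like network under epithelia and around vessels, and type VI forms beaded filaments beside cells. In the pancreas the interstitial fibres are made mostly by stellate cells and fibroblasts, and their accumulation is the fibrosis of chronic pancreatitis. Chains are hydroxylated and folded in the endoplasmic reticulum, trimmed outside the cell and cross-linked by lysyl oxidases.

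In KO pancreas the interstitial chains Col1a1, Col1a2 and Col3a1 and the type VI chain Col6a5 had higher means than in WT, by 1.07 to 1.93 log2 units. None of the 44 collagens passed as higher when the arrays were taken as unpaired, and these 4 passed when arrays with the same replicate number were compared, 9.09% of the collagens against 16.7% of all genes. The anchoring fibril chain Col7a1 fell by 1.06 on the log2 scale in KO, and 5 dimmer chains, Col13a1, Col25a1, Col11a1, Col22a1 and Col4a3, passed as lower in the unpaired test, Col22a1 in that test only. These 6 made 13.6% of the collagens, against 6.99% of all genes. The 5 dimmer chains kept their calls in 22, 17, 10, 8 and 6 of 25 alternative settings, in that order. The major type IV chains Col4a1 and Col4a2 passed neither test. All levels here are log2 array values and all differences are KO minus WT on that scale.

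The upstream sequences of Col3a1 and Col1a2, which were higher together, and of Col7a1, the gene with the largest fall, are shown as the 250 bases before the annotated gene start. They are from RefSeq (GRCm38.p6), all on the plus strand, read 5′ to 3′. Capitals mark the CCAAT box, the TATAAA box and the GC box GGGCGG, each searched on both strands.
Col3a1, chr1:45311288-45311537: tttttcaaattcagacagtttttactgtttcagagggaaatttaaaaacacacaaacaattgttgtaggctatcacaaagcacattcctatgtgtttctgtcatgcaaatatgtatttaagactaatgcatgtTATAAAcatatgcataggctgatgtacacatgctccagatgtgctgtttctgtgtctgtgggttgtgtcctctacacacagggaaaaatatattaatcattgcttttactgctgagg
Col1a2, chr6:4505368-4505617: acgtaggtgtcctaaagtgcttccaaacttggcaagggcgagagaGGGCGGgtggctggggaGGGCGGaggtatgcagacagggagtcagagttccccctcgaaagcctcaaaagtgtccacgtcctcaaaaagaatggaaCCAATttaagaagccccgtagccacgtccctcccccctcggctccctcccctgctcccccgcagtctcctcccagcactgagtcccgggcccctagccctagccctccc
Col7a1, chr9:108953336-108953585: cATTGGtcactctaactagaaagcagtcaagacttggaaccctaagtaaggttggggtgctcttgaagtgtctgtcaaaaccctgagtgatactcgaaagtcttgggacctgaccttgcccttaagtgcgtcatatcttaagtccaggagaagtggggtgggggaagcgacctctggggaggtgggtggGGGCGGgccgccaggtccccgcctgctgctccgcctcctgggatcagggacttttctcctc

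The Col3a1 window held 1 TATAAA and no match to the other motifs, with a GC content of 35.2%. The Col1a2 window held 1 CCAAT and 2 GGGCGG matches at 62% GC, and the Col7a1 window 1 of each at 56.4% GC. No motif searched was in all of these windows. Of 32851 windows of this length in the table, 33.8% held CCAAT, 12.4% TATAAA and 32.7% GGGCGG. Windows were listed for 35 of the 44 collagens (38 windows, of which 13, 5 and 22 held the motifs in that order). In the windows shown no matches overlap, and they are matches of letters only.

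Genotype was tested with limma over all 22180 genes, with Benjamini-Hochberg adjustment and a threshold of 0.05. Of all genes 14.6% passed as higher and 6.99% as lower in KO. Among the 44 collagens 0 passed as higher and 6 as lower (13.6%), against 21.6% of all genes in either direction. Of the 44, 8 (18.2%) lay lower in every KO array than in any WT array, against 12.1% of all genes, and 0 lay higher in every KO array, against 15.3%. At an unadjusted limma p under 0.05 Col3a1, Col1a2 and Col6a5 were higher as well. At that cut Col11a2, Col19a1, Col5a3, Col2a1, Col9a1, Col20a1, Col4a4, Col9a2 and Col16a1 were lower as well. The share of all genes at that cut is not given here. Both groups carry replicate numbers 1 to 4, and same-numbered arrays deviated together from their group means (correlation across genes 0.11 to 0.26), so a fit with the number as a block was set beside the first. With the block 16.7% of all genes passed as higher and 6.08% as lower, together 22.8%, and among collagens 4 passed as higher (9.09%) and 7 as lower (15.9%). KO lay above WT in all 4 numbers for 6 collagens (13.6%, against 24.8% of all genes) and below WT in all 4 for 11 (25%, against 22.7%). Single arrays moved the unpaired counts: without KO 1, Col1a1, Col1a2, Col3a1 and Col6a5 passed as higher, and lower calls numbered 2 without KO 4 and 14 without WT 1. The shares of all genes moved too: 12.2% passed as higher without KO 1. As lower, 2.07% passed without KO 4 and 10.6% without WT 1. The difference itself is the same in both fits, and its error is smaller with the block where paired arrays move together.

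**Figure D1:**
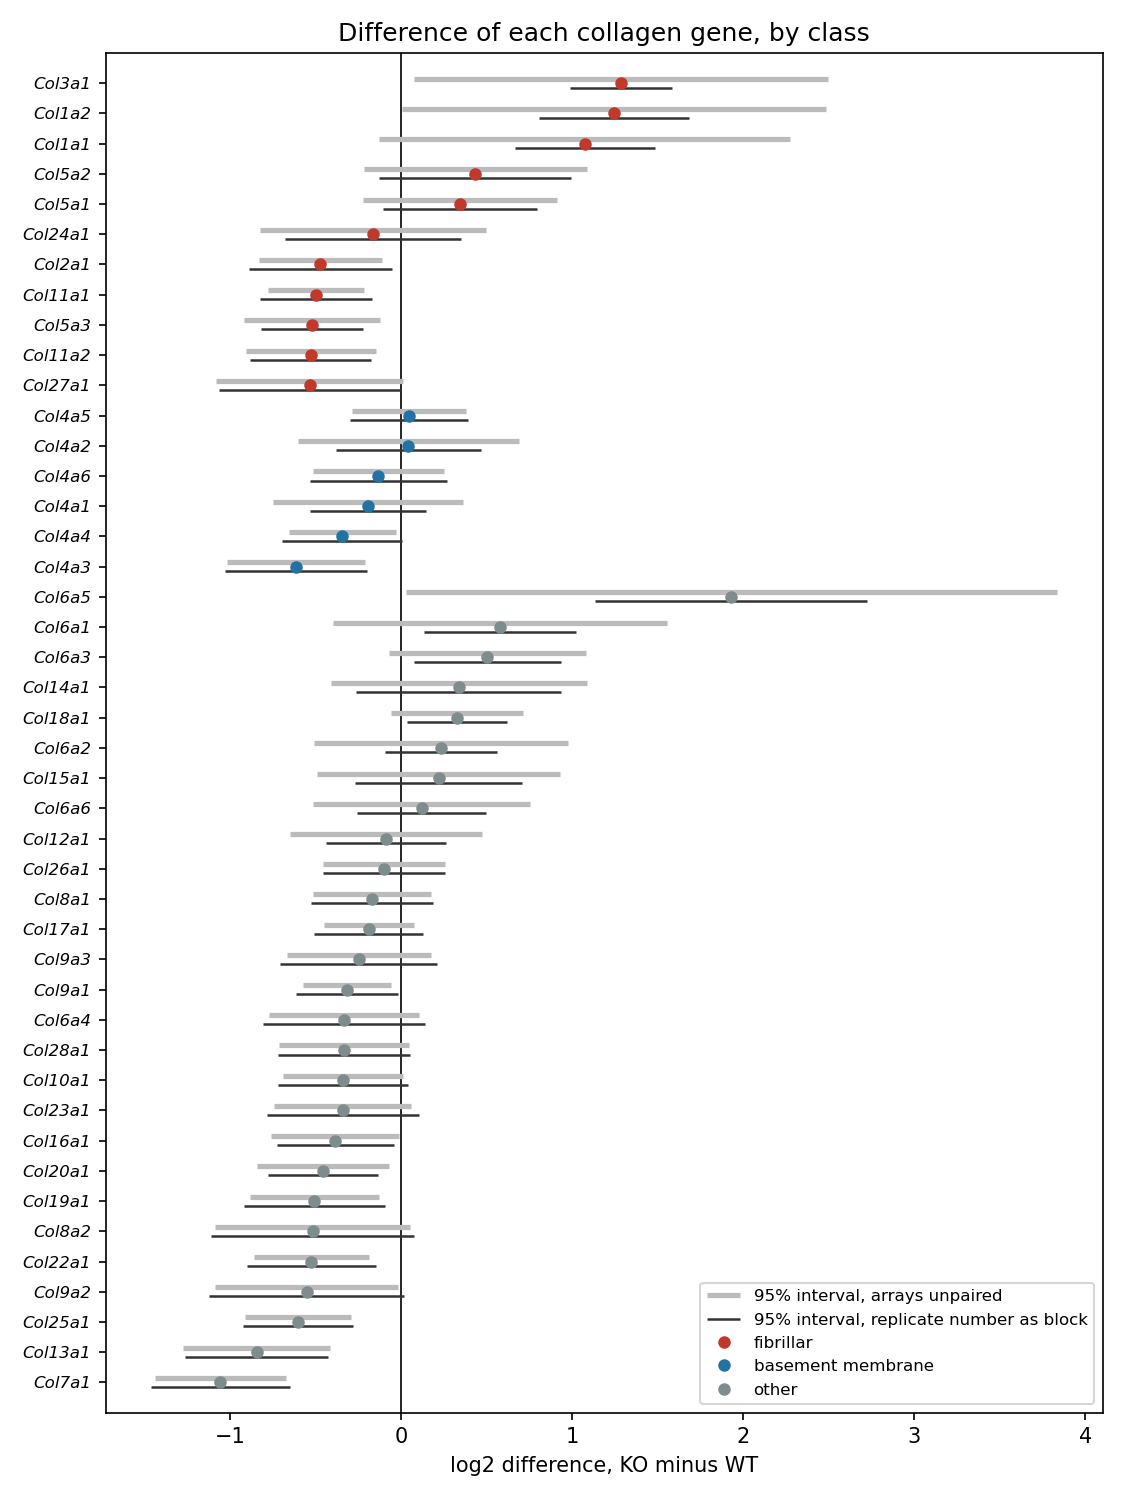
Log2 difference (KO minus WT) of each of the 44 collagen genes, by class, with 95% intervals from limma without (grey) and with (black) the replicate number as a block, 4 KO and 4 WT arrays. The intervals of Col3a1, Col1a2 and Col6a5 lie above 0 in both fits and shorten with the block. Those of Col1a1, Col6a1, Col6a3 and Col18a1 lie above 0 with the block only. Intervals below 0 in both fits are those of Col7a1, Col13a1, Col25a1, Col11a1, Col11a2, Col5a3, Col4a3, Col22a1, Col2a1, Col16a1, Col19a1, Col20a1 and Col9a1.

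Col3a1, the type III chain of compliant interstitial fibres, was the collagen of highest level. It read 6.25, 8.70, 7.66 and 7.60 in KO 1 to KO 4, against 5.08, 7.31, 6.51 and 6.17 in WT 1 to WT 4. The groups overlapped, because KO 1 lay below WT 2 and WT 3, yet every KO array lay above the WT array of its number. Its mean was 7.55 ± 1 in KO and 6.27 ± 0.92 in WT (SD, n = 4 each), a difference of 1.28 ± 0.54 (SE, limma adjusted p = 0.111). The differences within the numbers 1 to 4 were 1.17, 1.39, 1.15 and 1.43, and with the block the SE was 0.13 (adjusted p = 0.00187).

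Col1a2, the second chain of type I collagen, read 5.07, 7.84, 6.62 and 6.89 in KO 1 to KO 4, against 4.38, 6.29, 5.60 and 5.17 in WT 1 to WT 4. KO 1 was again the lowest KO array and WT 1 the lowest WT array. Its mean was 6.60 ± 1.15 in KO and 5.36 ± 0.80 in WT (SD, n = 4 each), a difference of 1.24 (limma adjusted p = 0.127, and 0.00527 with the block). A dimmer row of the same gene, not used in the test, read 2.20, 4.12, 3.76 and 3.42 in KO and 2.39, 3.06, 2.56 and 2.79 in WT, higher in KO in the numbers 2 to 4 and lower in number 1.

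Col1a1, the main chain of type I collagen, read 5.57, 8.18, 7.42 and 6.90 in KO 1 to KO 4, against 5.08, 7.01, 5.92 and 5.77 in WT 1 to WT 4. Its mean was 7.02 ± 1.10 in KO and 5.94 ± 0.80 in WT (SD, n = 4 each), a difference of 1.07 (limma adjusted p = 0.165, and 0.00658 with the block). The difference was 0.49 in number 1 and 1.13 to 1.5 in the others. The Col1a1 difference minus that of Col1a2 was -0.17, and within the numbers -0.20, -0.37, 0.47 and -0.59, of mixed sign.

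**Figure D2:**
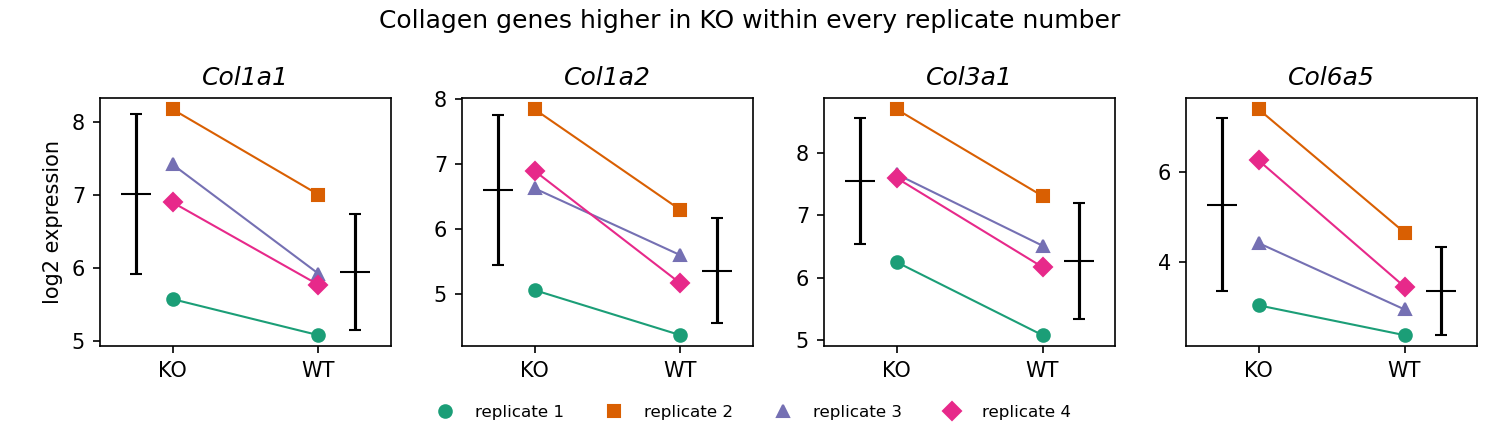
Log2 expression of Col1a1, Col1a2, Col3a1 and Col6a5 in each array, KO left and WT right, with lines joining arrays of the same replicate number and bars giving mean ± SD (n = 4). All 16 lines are higher at the KO end, while KO 1 lies within the range of the WT arrays in each gene.

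The other fibrillar chains lay at lower levels. Col5a1 and Col5a2, the type V chains that nucleate type I fibrils, differed by 0.34 (95% interval -0.22 to 0.91, limma adjusted p = 0.328) and 0.43 (-0.22 to 1.08, limma adjusted p = 0.288), and neither passed with the block. Col5a1 had a dimmer row that went the other way, at 1.79 to 2.08 in KO and 2.10 to 3.57 in WT. Col5a3, the third type V chain, read 2.56, 3.15, 2.97 and 2.63 in KO, against 3.02, 3.64, 3.39 and 3.35 in WT. It was lower in KO in all 4 numbers, by 0.42 to 0.72, and passed with the block only (limma adjusted p = 0.0604, and 0.0249 with the block).

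Among the chains of cartilage fibrils, which were dim here, 1 passed as lower without the block and 2 with it. Col11a1 read 1.56, 1.41, 1.5 and 1.44 in KO, against 1.93, 2.02, 1.75 and 2.21 in WT, with no overlap, a difference of -0.50 ± 0.13 (SE, limma adjusted p = 0.0224), and kept its call in 10 of 25 alternative settings. Its partner Col11a2 read 2.33, 2.13, 2.73 and 2.32 in KO, against 2.56, 2.87, 3.04 and 3.15 in WT, a difference of -0.53 (limma adjusted p = 0.0513, and 0.0425 with the block). Col2a1 (-0.47), Col27a1 (-0.54) and Col24a1 (-0.17) passed neither test. The median over the 11 fibrillar chains was -0.17, against -0.06 over all genes, with 5 chains above 0 and 6 below. It ran from -0.45 without KO 2 to 0.053 without KO 3, and was 1.16 over the chains with a level of 4 or more.

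Among the type IV chains, Col4a1 and Col4a2 make the network found in nearly all basement membranes, and their genes lie head to head. Col4a1 read 4.19, 4.63, 4.97 and 3.78 in KO, against 4.37, 4.73, 4.92 and 4.33 in WT, and Col4a2 3.30, 4.12, 4.59 and 3.28 in KO, against 3.43, 3.86, 4.07 and 3.76 in WT. In both genes KO 4 was the lowest of the 8 arrays and KO 3 the highest. The differences were -0.20 for Col4a1 (95% interval -0.75 to 0.36) and 0.04 for Col4a2 (-0.61 to 0.69), with limma adjusted p-values of 0.571 and 0.926. The intervals of the blocked fit were -0.53 to 0.14 for Col4a1 and -0.38 to 0.46 for Col4a2. With the block, Col4a1 passed as lower once the arrays had been quantile normalized again (-0.57) or cyclic loess normalized (-0.54).

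Col4a3, a chain of the kidney glomerular network, read 1.49, 1.47, 1.17 and 1.16 in KO, against 1.47, 2.27, 2.11 and 1.90 in WT, a difference of -0.62 ± 0.18 (SE, limma adjusted p = 0.0372). Its call was lost in 19 of 25 alternative settings, among them both renormalizations (-0.46 and -0.43) and the omission of any single array other than WT 1. The groups overlapped only through WT 1, which lay at the level of KO 1 and KO 2. Its head-to-head neighbour Col4a4 was lower in all 4 numbers and did not overlap between the groups (1.40 to 1.61 in KO, 1.65 to 2.19 in WT) but did not pass (-0.35, limma adjusted p = 0.102). Col4a5 (0.04) and Col4a6 (-0.13) passed neither test. The median of the 6 type IV chains was -0.17, and 1 of the 6 passed, as lower (16.7%, against 6.99% of all genes).

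Type VI chains were higher on average in KO, in 5 of the 6 genes (83.3%). Of all genes 44.8% were above WT, and of those at a level of 4 or more 81.1%. Col6a5, a chain related to Col6a3, had the largest difference of any collagen. It read 3.03, 7.40, 4.42 and 6.26 in KO 1 to KO 4, against 2.36, 4.65, 2.94 and 3.44 in WT 1 to WT 4. KO 2 and KO 4 stood above the rest, KO 1 and KO 3 lay within the WT range, and the differences within the numbers were 0.67, 2.75, 1.48 and 2.82. The mean difference was 1.93 ± 0.85 (SE, limma adjusted p = 0.124), and with the block the SE was 0.34 (adjusted p = 0.00833).

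Col6a1, a core type VI chain, read 5.50, 7.47, 6.43 and 6.26 in KO, against 4.81, 6.30, 6.41 and 5.81 in WT. It was higher in KO in all 4 numbers, in number 3 by only 0.02, and passed neither test (0.58, limma adjusted p = 0.337, and 0.0639 with the block). Col6a2, its partner, read 4.64, 6.21, 5.60 and 5.30 in KO, against 4.65, 5.84, 5.11 and 5.20 in WT (0.23, limma adjusted p = 0.615), and its mean was lower in KO when the arrays were quantile normalized again (-0.18) or cyclic loess normalized (-0.17). Col6a3, the long chain that closes the filament unit, differed by 0.50 (limma adjusted p = 0.174), Col6a6 by 0.12 and Col6a4 by -0.34.

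Col7a1, the chain of the anchoring fibrils that tie epithelial basement membranes to the tissue below, read 3.97, 3.95, 4.21 and 3.60 in KO 1 to KO 4, against 4.62, 5.04, 5.10 and 5.21 in WT 1 to WT 4. The groups did not overlap. Its mean was 3.93 ± 0.25 in KO and 4.99 ± 0.26 in WT (SD, n = 4 each), a difference of -1.06 ± 0.17 (SE, limma adjusted p = 0.00457, and 0.00656 with the block), or 0.48 times the WT level. It passed in all 27 alternative settings tried, with differences of -1.42 to -0.88. At its level, a mean of 4 or more, 4.18% of all genes passed as lower.

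Transmembrane collagens, which sit in the plasma membrane and are shed from it, were lower in KO in all 4 genes by their means. So were 69.6% of all genes under a level of 4. Of the 4, 2 passed as lower (50%, against 6.99% of all genes and 12.2% of those at a level of 2 to 3). Col13a1, found at cell contacts and at the neuromuscular junction, read 2.21, 2.04, 2.42 and 2.35 in KO, against 2.60, 3.41, 3.42 and 2.97 in WT. The groups did not overlap, and the difference was -0.85 ± 0.19 (SE, limma adjusted p = 0.0157). Col25a1, the neuronal collagen whose shed part is found in amyloid plaques in human brain, read 2.43, 2.25, 2.15 and 2.06 in KO, against 3.04, 2.58, 2.76 and 2.94 in WT, also without overlap, a difference of -0.60 ± 0.14 (SE, limma adjusted p = 0.0164). Col23a1 (-0.34) and Col17a1 (-0.19), the hemidesmosome collagen, did not pass.

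**Figure D3:**
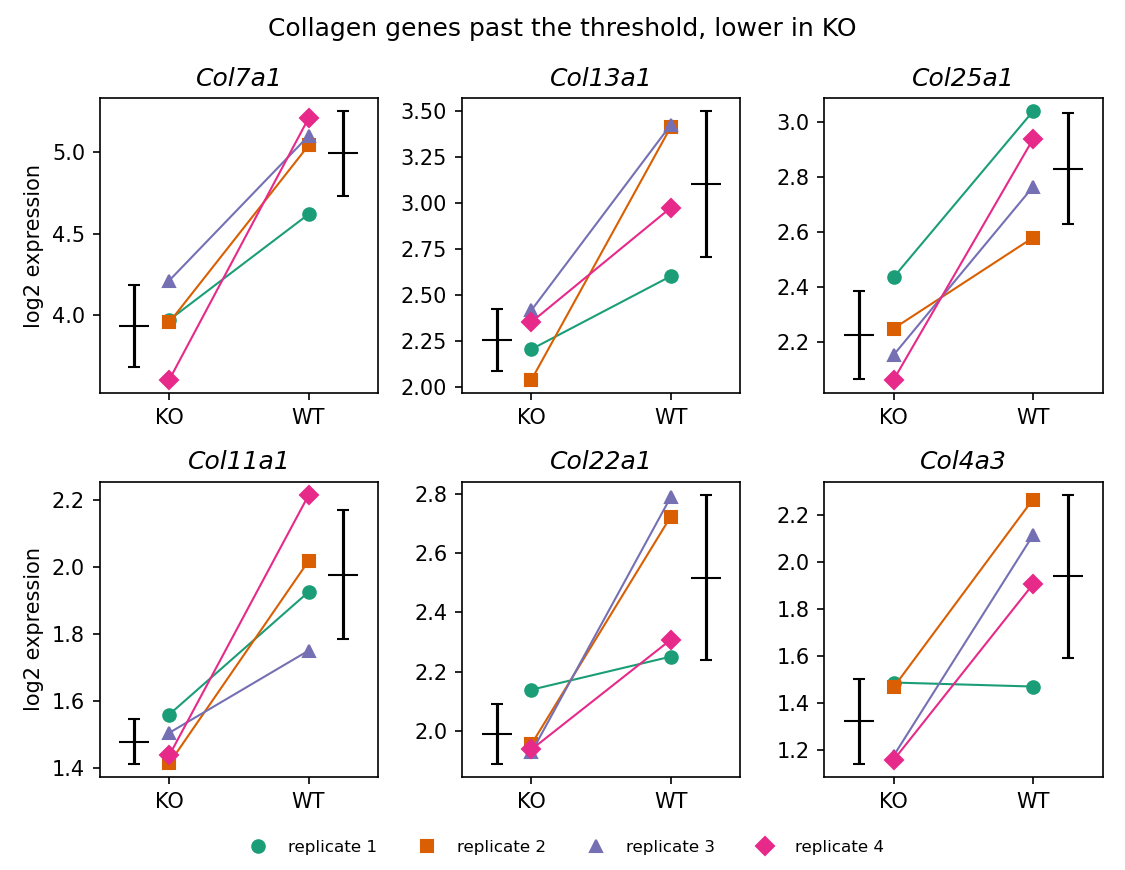
Log2 expression of the 6 collagens that passed as lower in KO, KO left and WT right, with lines joining arrays of the same replicate number and bars giving mean ± SD (n = 4). Col7a1 lies at about 4 in KO and 5 in WT, and the other 5 lie under 3.5 in every array. Only the number 1 line of Col4a3 is not lower in KO.

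FACIT collagens, which decorate the surface of fibrils, were below WT in 8 of 9 genes by their means (88.9%, against 69.6% of all genes under a level of 4). Col22a1, a collagen of muscle-tendon junctions, read 2.14, 1.95, 1.93 and 1.94 in KO, against 2.25, 2.72, 2.79 and 2.31 in WT, a difference of -0.53 (limma adjusted p = 0.0345, and 0.0518 with the block, which ended its call, as did 17 of 25 alternative settings in all). Col19a1 (-0.51), Col9a2 (-0.55), Col20a1 (-0.46), Col16a1 (-0.39), Col9a1 (-0.32), Col9a3 (-0.25) and Col12a1 (-0.09) did not pass, and Col14a1 was above WT by its mean (0.33) without passing. The network-forming chains Col8a1 (-0.17), Col8a2 (-0.52) and Col10a1 (-0.34) did not pass either. Col15a1 and Col18a1, which sit beneath epithelia and vessels and carry endostatin-like ends, differed by 0.22 and 0.33, and Col18a1 was higher in all 4 numbers (limma adjusted p = 0.184, and 0.097 with the block). The remaining Col26a1 (-0.10) and Col28a1 (-0.34) passed neither test. Over the 10 pairs of related chains compared, the smallest p of an exact two-sided permutation test was 0.114, and since 0.0286 is the smallest possible, no single pair could pass after adjustment over the 10. Col4a1 minus Col4a2 was below 0 in all 4 numbers (-0.05, -0.36, -0.46 and -0.07) and Col4a5 minus Col4a6 above 0 in all 4 (0.06, 0.08, 0.24 and 0.34).

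The direction of a collagen followed its level. Of 34 collagens with a mean under 4, 27 (79.4%) were below WT, and of 10 with a mean of 4 or more, 8 (80%) were above WT. The same held for all genes, of which 69.6% were below WT under a mean of 4 and 81.1% above WT at 4 or more. The median difference of the dim collagens was -0.34, against -0.15 for all dim genes, and that of the brighter ones 0.54, against 0.44. With the block 4 of the 10 brighter collagens passed as higher (40%), against 41.0% of all genes at that level, so this share lay at the background, and 1 passed as lower, against 4.44%. Without the block 0 of the 10 passed as higher, against 36.2%. Among the dim collagens 5 of 34 (14.7%) passed as lower without the block, against 8.10% of all dim genes, and 6 (17.6%) with it, against 6.72%. Of the dim collagens 0 passed as higher without the block, against 6.11%. Values were more widely spread within KO arrays, with an interquartile range over genes of 2.88 to 3.03, against 2.11 to 2.48 within WT arrays. The differences of Col1a1, Col1a2, Col3a1 and Col6a5 were 1.07, 1.24, 1.28 and 1.93 as deposited. They were 0.73, 0.88, 0.97 and 1.68 when the arrays were quantile normalized again, and 0.68, 0.84, 0.90 and 1.60 with cyclic loess. Without the block 5.54% and 6.86% of all genes then passed as higher, against 14.6%. The Col7a1 difference grew, to -1.42 and -1.40. The part of the wider spread in the differences was not tested further.

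**Figure D4:**
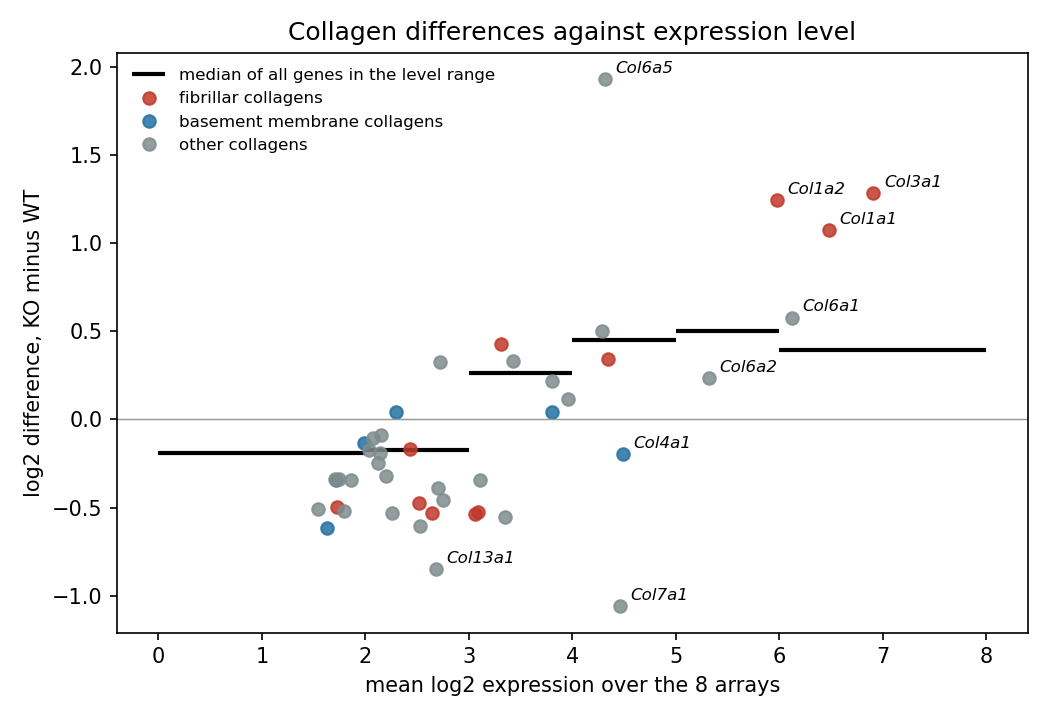
Log2 difference (KO minus WT) of each collagen against its mean log2 expression over the 8 arrays, with black bars giving the median difference of all genes in each range of level. Most collagens under a level of 3 lie below 0, at or under the bars. Col1a1, Col1a2, Col3a1 and Col6a5 lie above the bars of their ranges and Col7a1, Col4a1 and Col6a2 below.

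Among the stellate and fibroblast markers, 1 of 15 measured genes passed as higher (6.67%, against 14.6% of all genes) and 0 as lower. With the block 4 passed as higher (26.7%, against 16.7% of all genes, and 26.7% of those at a level of 3 to 4). With it 1 passed as lower (6.67%, against 6.08%). By their means 9 of the 15 were above WT and 6 below. Lum, a keratan sulfate proteoglycan of collagen fibrils, rose by 1.14 ± 0.24 (SE, limma adjusted p = 0.011). With the block the fibroblast receptors Pdgfra (1.29, adjusted p = 0.0109) and Pdgfrb (0.57, adjusted p = 0.0335) and the filament protein Vim (0.67, adjusted p = 0.0186) passed as higher. Acta2, the smooth muscle actin of activated stellate cells, had a mean of 4.84 in KO and 5.66 in WT (-0.82 ± 0.65, SE, limma adjusted p = 0.364), with WT 3 highest at 7.65. The median of the list was 0.11, its summed level ran from 61.3 to 73.1 in KO and from 58.7 to 71.6 in WT, and no member was at 0.

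Macrophage markers moved with the interstitial chains: 4 of 9 passed as higher (44.4%, against 14.6% of all genes and 36.2% of those at a level of 4 or more), 8 of 9 with the block (88.9%, against 16.7% and 41.0%), and their median was 1.55. Their summed level ran from 44.6 to 58.2 in KO and from 32.6 to 45.8 in WT, with no member at 0. KO 1 and WT 1 were the lowest arrays of their groups, as they were for Col1a1, Col1a2 and Col3a1. These arrays were also the lowest of their groups for the stellate and fibroblast, mesothelial and Schwann cell markers. Adipocyte markers stood apart in KO 2 (mean deviation 2.26, against -0.67 to 0.18 in the other arrays), the KO array of highest Col1a1, Col1a2, Col3a1 and Col6a5. Their summed level ran from 16.5 to 34.1 in KO and from 17.4 to 21.7 in WT, and 0 of 6 passed. Without the number 2 arrays the 4 genes still passed with the block, with differences of 1.25 for Col3a1, 1.15 for Col1a2, 1.04 for Col1a1 and 1.66 for Col6a5. That fit also left out WT 2, the highest WT array of each of these genes. With KO 2 alone left out of the unpaired fit, the differences were 0.90, 0.83, 0.69 and 1.22 in that order. None passed there, as with all arrays. The part of macrophages and adipocytes in these differences was not tested. Mesothelial markers had a median of 0.74 and a summed level of 21.2 to 29.9 in KO and 18.0 to 24.1 in WT. Of the 6, 1 passed as higher (16.7%, against 14.6% of all genes and 22.9% of those at a level of 3 to 4), Krt19, which is also on the duct list. Duct markers had a median of 0.34 with 2 of 5 higher (40%, against 14.6%, and 36.2% at a level of 4 or more), Krt19 and Epcam. Endothelial markers, whose cells rest on type IV collagen, had a median of -0.16 with 0 of 10 passing and a summed level of 37.5 to 45.3 in KO and 40.7 to 44.0 in WT, and Schwann cell markers -0.27 with 0 of 4. The acinar markers that define the tissue were present in both groups, with the enzyme genes Cpa1 (12.11 in KO and 12.24 in WT), Ctrb1, Cel and Cela1 among the brightest. Of the 8, 3 (37.5%, against 6.99% of all genes and 14.2% of those at a level of 8 or more) fell. These were the amylase Amy2b by 1.89, the acinar transcription factor Bhlha15 by 1.42 and the trypsinogen Prss2 by 0.89 on the log2 scale. Islet markers had a median of 0.14, with 2 of 7 lower (28.6%, against 6.99% of all genes).

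**Figure D5:**
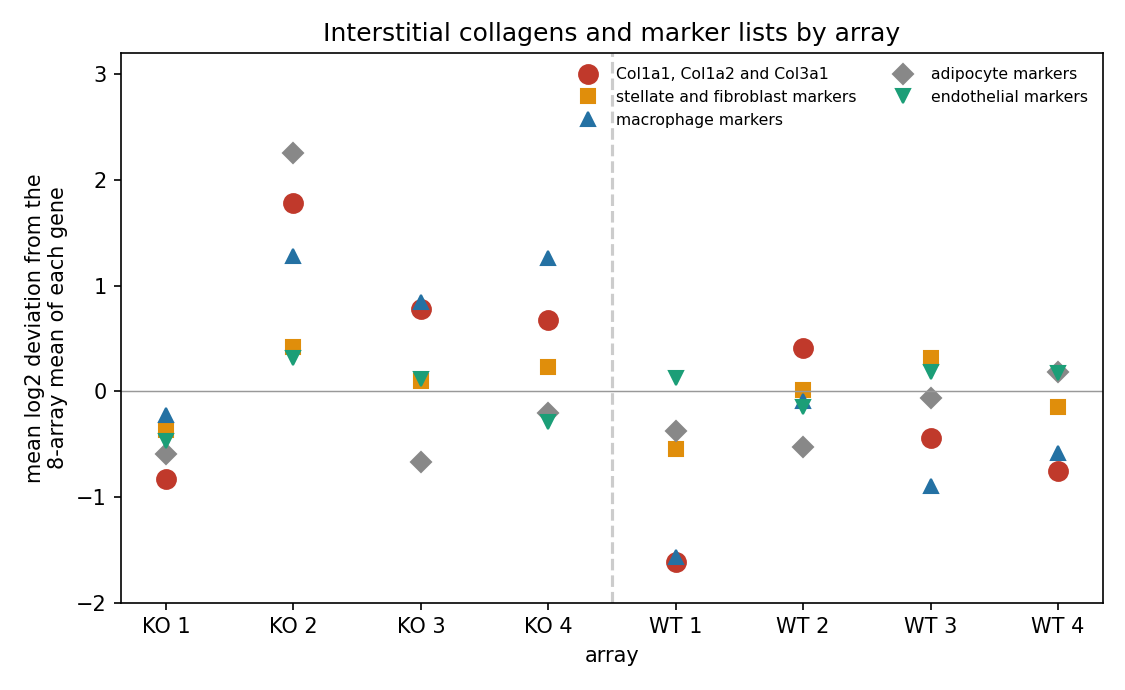
Mean log2 deviation from the 8-array mean of each gene, per array, for Col1a1, Col1a2 and Col3a1 together and for 4 marker lists. The interstitial chains, the stellate and fibroblast markers and the macrophage markers are lowest in KO 1 among the KO arrays and in WT 1 among the WT arrays. The adipocyte markers are high in KO 2 alone.

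The enzymes that modify collagen chains were read from lists of the pathway. Of 14 measured hydroxylases and glycosyltransferases 5 rose in KO (35.7%) and 0 fell, with a median of 0.48, where 14.6% of all genes and 36.2% of those at a level of 4 or more rose. The telopeptide lysyl hydroxylase Plod2 rose by 1.76 ± 0.36 (SE, limma adjusted p = 0.0106), the prolyl 3-hydroxylation cofactor Crtap by 1.29 ± 0.26 (limma adjusted p = 0.0102) and the lysyl hydroxylase Plod1 by 0.85 ± 0.20 (limma adjusted p = 0.0181). The prolyl 4-hydroxylase subunit P4ha1 passed with the block only (0.86, adjusted p = 0.0191). Of 11 genes of procollagen folding and export 4 rose (36.4%, again near the 36.2% of genes at a level of 4 or more) and 0 fell, with a median of 0.66. These were the coat subunit Sec23a (1.48), the chaperone Hspa5 (1.65), the retrieval receptor Kdelr2 (1.46) and the collagen cargo receptor Mia3 (0.95), and all 4 serve secretion in general as well. Serpinh1 (HSP47), the chaperone dedicated to procollagen, had a mean of 5.82 in KO and 4.99 in WT and passed with the block only (0.83, limma adjusted p = 0.122, and 0.0271 with the block).

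Outside the cell, 2 of 6 cross-linking genes rose (33.3%, against 14.6% of all genes), the lysyl oxidases Lox (1.2 ± 0.33, SE, limma adjusted p = 0.0298) and Loxl1 (1.14 ± 0.33, limma adjusted p = 0.0366), with a list median of 0.60. Of all genes at a level of 3 to 4, 22.9% passed as higher, and at 4 or more 36.2%. Of 7 procollagen proteinases and enhancers, the enhancer Pcolce rose by 0.69 (limma adjusted p = 0.0055), and Adamts14, a procollagen N-proteinase, fell by 0.48 on the log2 scale (limma adjusted p = 0.0428). Each makes 14.3% of the list, against 14.6% of all genes passing as higher and 6.99% as lower. Of 9 collagen-binding proteoglycans Lum and Ogn (1.06, limma adjusted p = 0.0335) rose (22.2%, against 14.6% of all genes and 36.2% of those at a level of 4 or more), with a median of 0.57. Of 10 collagen receptors 3 rose (30%, against 14.6% of all genes and 36.2% of those at a level of 4 or more), with a median of 0.38. The 3 were the integrin chain Itgb1 (0.77), Cd36 (1.49) and the discoidin receptor Ddr1 (0.40), and Ddr1 lost its call with the block (adjusted p = 0.0728). Of 17 partners of type IV collagen in basement membranes the laminin chain Lama5 rose (0.70, limma adjusted p = 0.0128), with a median of 0.43 (5.88%, against 14.6% of all genes). Of these partners 4 passed with the block (23.5%, against 16.7% of all genes, 26.7% at a level of 3 to 4 and 41.0% at 4 or more). In the TGF-beta pathway, which drives collagen synthesis in fibroblasts, 3 of 16 genes rose (18.8%, against 14.6% of all genes) and 0 fell, with a median of 0.49. At levels of 3 to 4 and of 4 or more, 22.9% and 36.2% of all genes rose. With the block 5 passed as higher (31.25%, against 16.7% of all genes, 26.7% at a level of 3 to 4 and 41.0% at 4 or more). With it 1, the latent TGF-beta binding protein Ltbp4 (-0.90), passed as lower (6.25%, against 6.08%). Without the block the 3 were Tgfb1 (1.59 ± 0.36, SE, limma adjusted p = 0.0155), Smad4 (0.63) and Tgfbr1 (0.63).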

How the data were processed

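The deposited table gives 41345 rows for 8 arrays. The authors made its values, read here as log2 expression, with oligo, RMA and limma per the submitters' processing notes; the log base was judged from their range, since no source used here names it. RMA corrects background and normalizes between arrays, so levels are relative within the table. No measure of signal over background and no scan batch was used here, and the number of arrays limits the precision.

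Rows were named through the platform annotation: 23521 had 1 symbol, 1814 several and 16010 none, and 0 columns were left unmapped. The row of highest mean stood for each gene, with no filter on dim rows, which gave 22180 genes. All 44 collagen symbols matched a RefSeq table (GRCm38.p6) by Entrez identifier. Genotype was fitted unpaired to the 8 arrays with lmFit and eBayes (limma 3.58.1, R 4.3.3), p-values were adjusted by Benjamini-Hochberg over the 22180 genes, and calls were made at 0.05. A second fit took the replicate number as a block.

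Whether the numbers pair the arrays was checked on each array's deviation from its group mean. Over all genes, KO and WT arrays of 1 number correlated at 0.263, 0.165, 0.110 and 0.138, each above 0.1, and the numbers were therefore treated as pairs, although 2 of the 12 pairings of different numbers were over 0.1 too (0.125 and 0.106) and no label gives the pairs a shared litter or day. KO 4 and WT 4 were the female arrays, so a shared number and a shared sex cannot be told apart for number 4. Leaving out number 4 leaves the males alone. Over the 44 collagens the same-number values were 0.61, 0.64, 0.09 and -0.03, and KO 4 with WT 2 gave 0.47. Members and gene lists were chosen with earlier results of these data known. Values of every array are given for collagens past the threshold, for fibrillar and type IV chains with a mean of at least 5 and for the 5 collagens of highest mean. Col5a3, Col11a2, Col6a5, Col4a1 and Col4a2 were added after their values were seen. In simulated data of 22180 genes with 200 changed, 82% of shifts of 1 log2 unit and 98% of shifts of 2 were recovered without the block, and 75% and 98% with it, with 5.26% and 6.99% of calls false in that order. Only the data fitted with the block were given a shared deviation of each numbered pair. These shares therefore do not compare the fits, and the unpaired fit was not tried on data with such deviations. Alternatives added sex to the model, used males alone, dropped arrays 1 at a time, or changed the normalization, the variance model, the filter on level or the rule for genes with several rows.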

Additional observations from a re-analysis of the deposited data

Results flagged for a closer look

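In 4 of the 88 groups of 4 arrays examined (44 collagens in each genotype) 1 array lay far from the other 3, and chance gives about 1 in 20. Col12a1 read 2.80 in KO 2, against 1.82 to 1.96 in the other KO arrays. Col22a1 read 2.14 in KO 1, against 1.93 to 1.95 in the other KO arrays. Col5a2 read 2.64 in WT 4, against 3.2 to 3.27 in the other WT arrays. Col6a6 read 3.36 in WT 1, against 4.02 to 4.16 in the other WT arrays. The difference between the genotype effects of females and males passed in 0 of the 44 collagens (limma, 4 genotype-by-sex groups), 0 of them at an unadjusted p under 0.05, with 1 female per genotype.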

How the results depend on the processing

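Collagens called higher in KO numbered 4 with the replicate block, 4 with the block and a second quantile normalization or cyclic loess, 7 with the block and median centring and 5 with the block and a level filter of 4. Of all genes tested 16.7%, 7.34%, 8.51%, 22.4% and 47.3% passed as higher in these settings, in that order. The filter left 10 collagens. With the block the collagens called higher numbered 5 without replicate 1 and 4 without replicate 2, 3 or 4. Those fits called 16.2%, 11.7%, 9.30% and 7.76% of all genes higher. Col1a1, Col1a2, Col3a1 and Col6a5 passed in each of these 9 settings, all but the block alone added after seeing the data, and without the block only when KO 1 was left out (1.55, 1.76, 1.72 and 2.68). Leaving out 1 array at a time without the block gave 0 to 4 called higher and 2 to 14 called lower. The 14 came without WT 1 (10.6% of all genes lower), the 2 without KO 4 (2.07% lower) and the 4 without KO 1 (12.2% higher). Medians then ran from -0.45 (without KO 2) to 0.053 for fibrillar chains and from -0.29 to -0.04 for type IV chains. With the block and without a pair, lower calls numbered 11, 3, 1 and 2 as numbers 1 to 4 were left out. The shares of all genes were 6.77%, 3.02%, 1.46% and 1.24%.

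Collagens called lower in KO numbered 6, and 1 among males only, 3 once quantile normalized again, 2 with cyclic loess, 2 with median centring, 11 with array weights, 3 with an equal-variance model, 1 with a level filter of 4, 3 with the block and median centring and 1 with the block and the filter. In the same order 6.99%, 0.654%, 5.15%, 5.31%, 2.77%, 10.4%, 3.82%, 4.65%, 2.75% and 5.38% of all genes tested passed as lower. Col7a1 was called in all 27 settings, Col13a1 in 22 of 25, Col25a1 in 17, Col11a1 in 10, Col22a1 in 8 and Col4a3 in 6. The 25 are the settings that tested these dimmer genes. The fibrillar median turned to 1.16 and that of the other types to 0.50 when only genes of level 4 or more were kept, since the dim chains were gone, with the block too. The median of the other types was -0.14 after cyclic loess, with the block or without it. Median centring moved the median of all genes to 0.08. Among genes that passed neither test, Col4a2 turned to -0.23 once quantile normalized again, -0.19 with cyclic loess (both also with the block), -0.070 with array weights, and ran from -0.22 to 0.22 as single arrays were left out (lowest without KO 3, and below 0 without KO 2 or WT 1 too), and with the block to -0.035 and -0.12 without numbers 2 and 3. Col6a2 turned to -0.18 and -0.17 after these normalizations, with the block or without, and to -0.026 without KO 2. Col4a1 ran from -0.39 to 0.0087 as single arrays were left out, above 0 only without KO 4. The cause was not tested for these changes.

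Most called collagens lay under a level of 4, and without a background measure their distance from unexpressed genes is unknown. Probe positions are not known here.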

Other observations

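The brighter single-symbol row of Col6a1 was used in the tests. A dimmer row of the gene read 1.72, 2.27, 2.57 and 2.00 in KO 1 to KO 4, against 1.25, 2.5, 1.93 and 1.94 in WT 1 to WT 4. A further row, annotated to Col6a1 and 3 other genes, read 6.13, 5.49, 6.63 and 6.08 in KO, against 6.09, 5.20, 6.05 and 6.14 in WT, and was left out because its signal cannot be given to 1 gene. In that row KO 2 was the lowest KO array, while in the row used it was the highest.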
